A study of Mus musculus with 16 samples.

Results

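The 36 genes described here act in DNA copying or cell division, and they are used here as a gauge of proliferating cells in whole liver. Whether the level of each follows the number of such cells was not tested. They were chosen by gene symbol, and each symbol matched 1 Ensembl gene among the 53801 genes of the count table. By their known roles 24 were grouped as mitosis genes and 12 as S-phase genes. The split is not strict, since some of the 24, such as Mki67 and Ccna2, are not confined to mitosis. The livers came from mice with and without a liver-specific knockout of Degs1, the gene of dihydroceramide desaturase, which turns dihydroceramides into ceramides. There were 4 groups of 4 livers, namely controls on normal chow, knockouts on normal chow, controls on a high-fat diet and knockouts on a high-fat diet. Both knockout groups carry the same labelled deletion and both control groups are labelled only as controls. The sources used here do not give the strain, sex, age, Cre driver, control genotype or length of feeding. The labelled tissue was checked with 8 hepatocyte markers, whose summed level was between 75600 and 160000 CPM (counts in each library scaled to a common total) in all 16 livers.

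Most hepatocytes of an adult liver rest outside the cell cycle and can re-enter it after tissue loss or injury, while immune and endothelial cells in the same tissue divide on their own schedules. On entry, E2F factors switch on the S-phase genes, among them the MCM helicase that opens DNA at replication origins. The mitosis genes follow later under the transcription factors B-Myb and Foxm1 with the MuvB complex, which can bind a promoter element called the cell cycle genes homology region (CHR), and in resting cells the related DREAM complex holds many of these promoters silent.

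Promoter sequences were available from RefSeq (build GRCm38.p6) for 29 of the 36 genes, in 31 windows of 300 bases that run from 250 bases before to 50 bases after a transcription start. The windows of 5 genes are shown because these genes carry the comparisons below: Mki67 and Cenpe had the smallest p of the 33 genes tested in the knockouts on the high-fat diet, Top2a is the chromosome-structure gene, and Mcm2 and Mcm5 are the S-phase genes with the smallest p on chow and between diets in knockouts. Capitals mark (overlapping words joined in 1 run) CHR words (TTTGAA or TTCGAA), E2F words (TTTCCCGC, TTTCGCGC, TTTGCCGC or TTTGGCGC) and the CCAAT box (CCAAT), each searched on both strands, so that a capital run can also be the reverse complement of a word. The Mki67 window is chr7:135716330-135716629 on the minus strand and the Top2a window is chr11:99024140-99024439 on the minus strand. The Cenpe window is chr3:135212313-135212612 on the plus strand. The Mcm2 window is chr6:88898731-88899030 on the minus strand and the Mcm5 window is chr8:75109259-75109558 on the plus strand.
Mki67: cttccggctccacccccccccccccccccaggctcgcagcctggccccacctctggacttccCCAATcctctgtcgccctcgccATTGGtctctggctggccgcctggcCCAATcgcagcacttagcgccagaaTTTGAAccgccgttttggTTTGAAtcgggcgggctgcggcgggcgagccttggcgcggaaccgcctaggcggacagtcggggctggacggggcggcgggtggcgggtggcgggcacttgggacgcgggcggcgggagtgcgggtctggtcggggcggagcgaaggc
Top2a: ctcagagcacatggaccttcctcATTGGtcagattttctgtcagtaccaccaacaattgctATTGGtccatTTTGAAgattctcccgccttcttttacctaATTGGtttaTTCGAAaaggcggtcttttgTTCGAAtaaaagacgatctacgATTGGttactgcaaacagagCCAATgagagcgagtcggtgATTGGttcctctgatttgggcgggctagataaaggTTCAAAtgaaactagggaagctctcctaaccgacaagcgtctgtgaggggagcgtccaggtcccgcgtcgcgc
Cenpe: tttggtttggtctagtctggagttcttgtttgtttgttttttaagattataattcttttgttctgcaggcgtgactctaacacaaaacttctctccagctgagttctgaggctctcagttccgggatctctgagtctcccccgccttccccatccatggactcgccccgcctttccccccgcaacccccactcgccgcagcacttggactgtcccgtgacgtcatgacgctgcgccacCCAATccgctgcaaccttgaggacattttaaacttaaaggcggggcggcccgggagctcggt
Mcm2: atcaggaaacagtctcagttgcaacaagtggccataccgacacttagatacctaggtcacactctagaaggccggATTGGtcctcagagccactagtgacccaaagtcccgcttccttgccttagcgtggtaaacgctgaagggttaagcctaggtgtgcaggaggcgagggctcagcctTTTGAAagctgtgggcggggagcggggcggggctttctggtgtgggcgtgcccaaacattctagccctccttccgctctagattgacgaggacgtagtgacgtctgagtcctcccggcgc
Mcm5: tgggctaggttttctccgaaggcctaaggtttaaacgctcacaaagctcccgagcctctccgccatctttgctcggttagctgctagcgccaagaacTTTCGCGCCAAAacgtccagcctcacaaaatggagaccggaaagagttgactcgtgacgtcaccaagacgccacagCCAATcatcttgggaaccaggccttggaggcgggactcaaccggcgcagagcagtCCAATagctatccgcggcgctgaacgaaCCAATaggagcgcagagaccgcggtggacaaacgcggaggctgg

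The mitosis and S-phase genes held different words in these windows. A CHR word was present in 80.0% of the 20 mitosis windows and in 27.3% of the 11 S-phase windows, against 19.2% of the 32817 windows of that length in the RefSeq table. An E2F word was present in 36.4% of the S-phase windows and 5.0% of the mitosis windows, against 2.26% of all windows. The CCAAT box, a common promoter word, was found in 90.3% of the member windows and 37.4% of all. Within the 100 bases nearest the start, 15 of the 20 mitosis windows and 9.09% of the S-phase windows held a CHR word, against 5.31% of all. Mki67 held 2 CHR words and Top2a 4, Mcm2 held 1 and Cenpe none, and Mcm5 held 2 E2F words that overlap each other. These are matches of letters in a window, not bound sites.

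All of these genes were expressed at low levels. The mitosis genes were the lowest, with a median over the 24 genes of 0.292 CPM per kilobase of transcript, against 2 for the 12 S-phase genes. Pcna, the sliding clamp of the DNA polymerases, was the highest, at 11.39 CPM per kilobase (median over 16 livers), followed by Mcm7 at 4.053 and by Rrm1, the large subunit of ribonucleotide reductase, at 3.425. The highest mitosis gene was Top2a, which untangles chromosomes, at 0.6517, and 10 of the 12 S-phase genes lay above it, the exceptions being Cdc45 and Ccne2. At the other end, the kinetochore protein gene Cenpf was at 0.07357 and the checkpoint kinase gene Bub1 at 0.07707. In raw counts, 13 of the 36 genes had at least 10 counts in every liver, 10 of them S-phase and 3 mitosis genes (Mki67, Top2a and Kif11). The filter on low counts left 33 of the 36 for testing, among 14351 of 53801 genes in all. Ccnb1 (the cyclin of Cdk1 at mitotic entry), Plk1 (polo-like kinase) and Bub1 did not pass, with 82, 71 and 81 counts summed over the 16 libraries. Ccnb1 was between 0 and 0.72 CPM, and a count of 3 in a library is worth 0.135 to 0.293 CPM, so its lowest values rest on fewer than 3 counts. Some reads may belong to neighbours or copies: Ccna2, Ccne2, Cdc20, Cdc45, Kif20a, Mcm7, Nusap1 and Prc1 overlap a named gene on the other strand, and Cdca8, Cenpf, Kif11, Mki67, Plk1 and Top2a overlap an unnamed gene model there, the strand setting of the counting being not stated. On the same strand, Foxm1 overlaps Tex52 and a gene model, Kif11, Rrm1 and Top2a a gene model, and Mcm7, Nusap1 and Tpx2 small RNA genes. Ccnb1, Ccnb2, Pcna and Tyms have annotated pseudogenes, and the values of these genes are uncertain to that extent.

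Library totals ran from 11938596 to 23250885 counts. Degs1 itself was at 84.7 ± 3.13 CPM (SD, n = 4) in chow controls and 38 ± 1.65 in chow knockouts, while high-fat controls had 73.4 ± 18.9 CPM and their knockouts 31.3 ± 7.01, with no overlap between genotypes on either diet. The fall was -1.16 on the log2 scale on chow (edgeR adjusted p = 0.0123) and -1.23 on the high-fat diet (edgeR adjusted p = 0.00376). Animal numbers in the labels do not overlap between any groups, so anything that goes with them cannot be told apart from diet and genotype. Within the groups, 4 livers were often at one end in these genes. Chow knockout 1 had the lowest total and 5 of the 36 genes at 0 counts, and it was the lowest or tied for lowest of its group in 23 of the 36. High-fat control 1 was the lowest or tied for lowest in 22 of the 36 and chow control 1 the highest or tied for highest in 22. High-fat control 3 was the highest or tied for highest of its group in 27 of the 36. Its share of counts on models annotated as sense-intronic or TEC (an annotation class of transcripts awaiting experimental proof) was 0.0218%, the lowest of all livers, against up to 0.164% in its own group.

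Summed over the 24 mitosis genes, the high-fat knockouts stood above every other liver. Values are given here and below in the order of replicates 1 to 4. The sum was 47.7, 42.9, 38.3 and 36.2 CPM in high-fat knockouts and 12.1, 20.7, 34.7 and 20.8 in high-fat controls. It was 32.6, 18.6, 21 and 20.1 CPM in chow controls and 21.1, 27.4, 27.4 and 23.9 in chow knockouts. The lowest high-fat knockout was thus only just above high-fat control 3, and the other 3 groups overlapped. Without Mki67 and Top2a, which held 22.8% and 13.6% of the sum in high-fat knockouts, the remaining 22 genes overlapped slightly, at 22.1 to 30.7 CPM in high-fat knockouts against 9.77 to 26.3 in high-fat controls. The sums of the 12 S-phase genes overlapped in all groups, at 88 ± 2.92 CPM (SD, n = 4) for controls and 78.9 ± 12.6 for knockouts on chow. On the high-fat diet they were 86.3 ± 20.9 for controls and 89 ± 10.7 for knockouts. Of the genes tested, 19 of 21 mitosis genes and 5 of 12 S-phase genes had their highest group mean in high-fat knockouts, as did 34.6% of all genes tested. No p is given for these sums, which add up genes of one list.

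**Figure D1:**
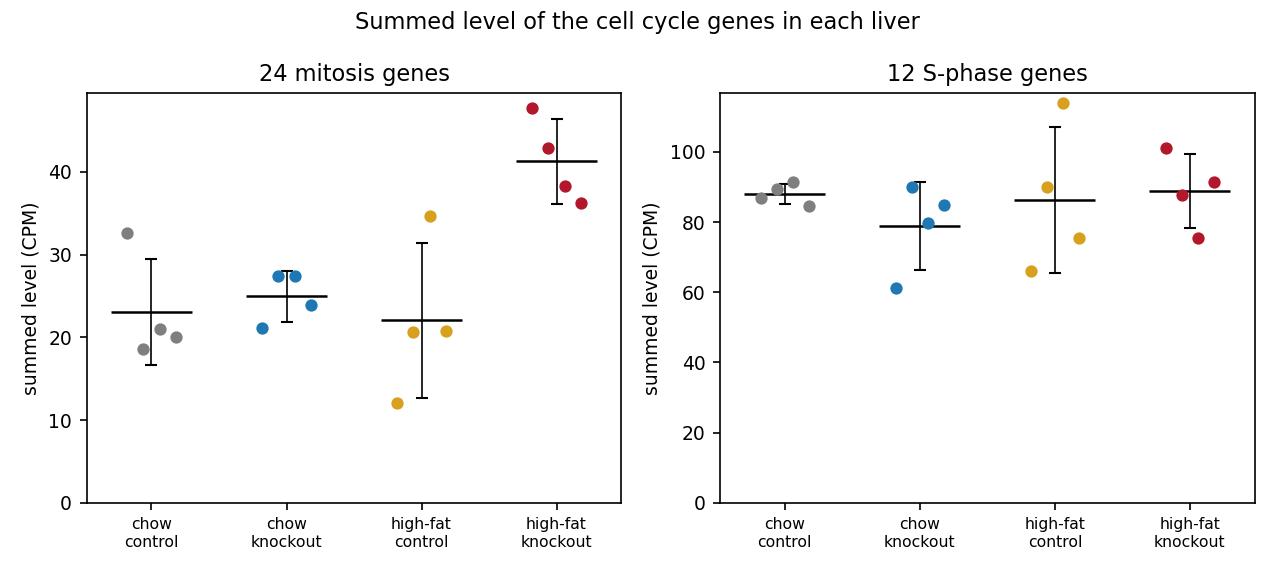
Summed level in CPM (y axis) of the 24 mitosis genes and of the 12 S-phase genes in each of the 16 livers (points), by group (x axis), with the group mean (line) and SD (bar). The 4 high-fat knockouts lie between 36.2 and 47.7 CPM for mitosis genes, above the other 12 livers, while the S-phase sums of the 4 groups overlap.

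In livers on the high-fat diet, the question was whether loss of Degs1 goes with a different level of these genes. Most mitosis genes had higher fitted levels in the knockouts, yet none of the 33 genes tested passed the threshold of 0.05 on the edgeR adjusted p, where 0.111% of all genes tested did. DESeq2 called 2 of them (Mki67 and Cenpe) and limma-voom 1 (Mki67). The 0.111% is the edgeR share, and no such share is given here for the other tools. At an unadjusted p of 0.05 the count was 6 higher and 0 lower, all 6 of them mitosis genes, against 8.54% of all genes tested higher and 12.8% lower. The median log2 fold change was 0.74 over the 21 mitosis genes and 0.10 over the 12 S-phase genes, and 0.03 over all genes tested. It lay above 0 for 26 of the 33 genes and for 52.2% of all genes tested. The 4 knockouts were all above the 4 controls for 3 of the 33 (Mki67, Cenpe and Prc1) and all below for none, against 5.46% and 7.78% of all genes tested.

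**Figure D2:**
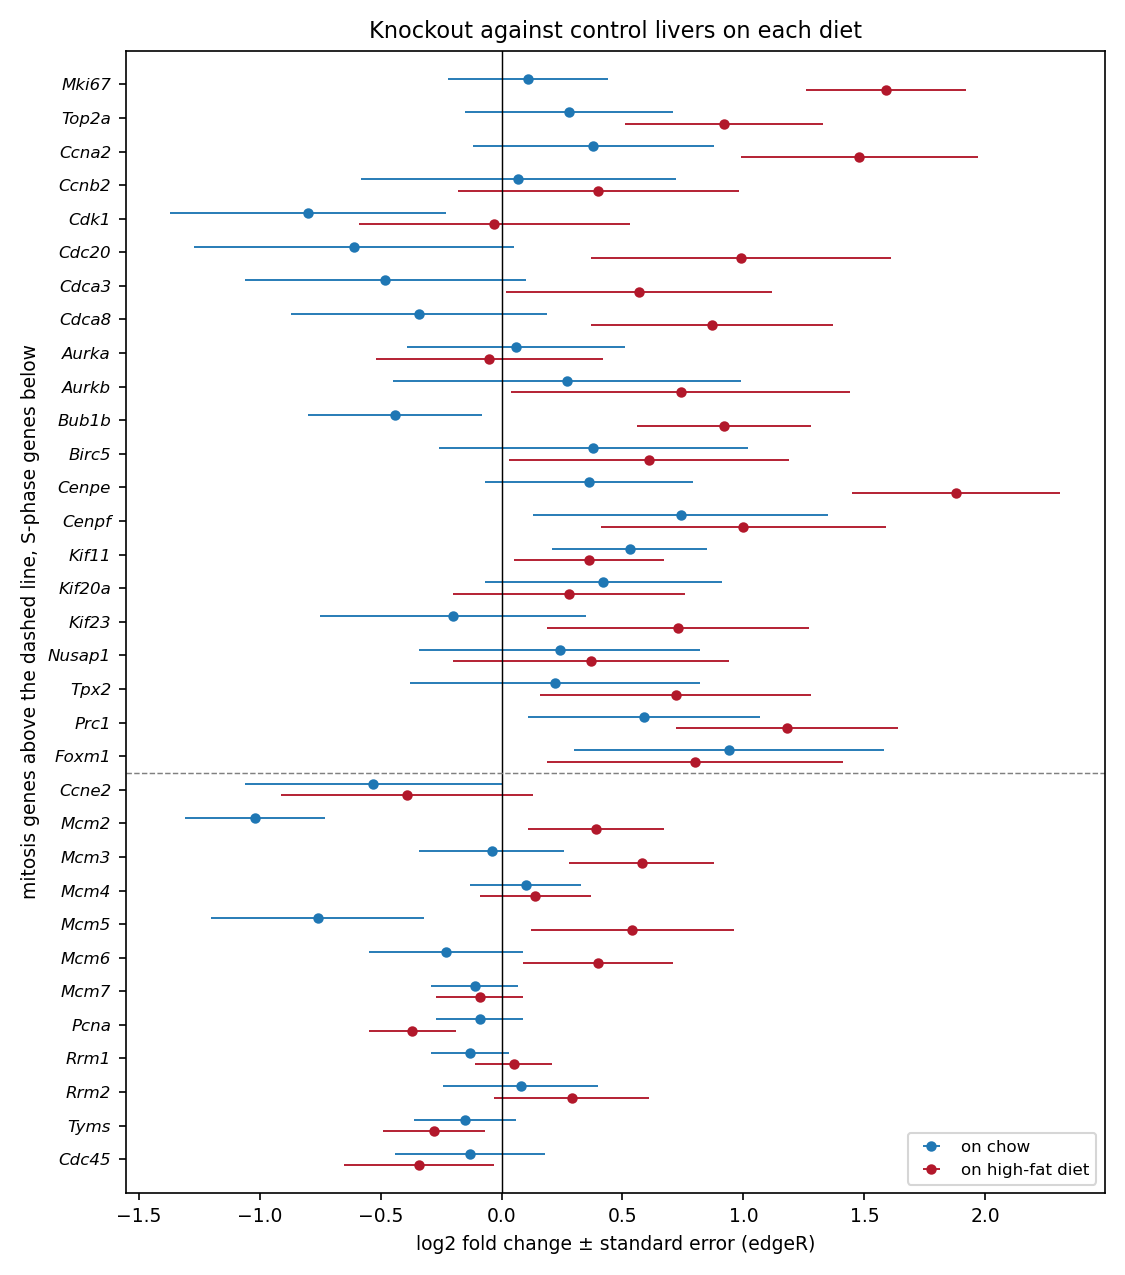
Log2 fold change of knockout against control livers (x axis, edgeR, bars give the standard error) on chow (blue) and on the high-fat diet (red) for the 33 genes tested (y axis), mitosis genes above the dashed line and S-phase genes below. On the high-fat diet 19 of the 21 mitosis genes lie above 0, with Cenpe at 1.88 and Mki67 at 1.59, while the S-phase genes lie between -0.39 and 0.58.

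Mki67 encodes Ki-67, a chromosome surface protein found in cycling cells and the usual stain for them. It was at 10.1, 10.7, 10.1 and 6.73 CPM in high-fat knockouts and at 1.63, 4.46, 2.91 and 3.5 in high-fat controls. Even the lowest knockout was above the highest control. The fold change was 3-fold, or 1.59 on the log2 scale (SE 0.33, edgeR adjusted p = 0.0664). It was at 7.4, 2.82, 2.98 and 4.91 CPM in chow controls and 6.54, 6.04, 3.2 and 3.82 in chow knockouts, so high-fat knockout 4 lay below chow control 1. The Mki67 difference lies near the threshold, and its call depends on the tool: the adjusted p was 0.00168 in DESeq2 and 0.0491 in limma-voom.

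Cenpe, the kinetochore motor that carries chromosomes to the spindle equator, had the largest fold change of the 33. Its level was 2.13, 1.65, 1.81 and 1.13 CPM in high-fat knockouts against 0.203, 0.318, 0.677 and 0.6 in high-fat controls, with no overlap. The lowest of these values rests on 3 counts. The difference was 1.88 on the log2 scale (SE 0.43, edgeR adjusted p = 0.084), and DESeq2 called it with an adjusted p of 0.00694. Prc1, which bundles the midzone microtubules, was at 1.56, 1.59, 0.853 and 1.33 CPM against 0.407, 0.701, 0.745 and 0.5, also without overlap (1.18 on the log2 scale, SE 0.46, edgeR adjusted p = 0.162). The other 6 tested genes of the kinetochore and spindle, namely Cenpf, Kif11, Kif20a, Kif23, Nusap1 and Tpx2, had log2 fold changes between 0.28 and 1.

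Ccna2 encodes cyclin A2, the partner of Cdk2 and Cdk1 from S phase to mitosis. It was at 1.3, 1.9, 2.08 and 1.66 CPM in high-fat knockouts and at 0.271, 0.255, 1.62 and 0.35 in high-fat controls. High-fat control 3 alone reached into the knockout range. The difference was 1.48 on the log2 scale (SE 0.49, edgeR adjusted p = 0.119), and without that liver it was 2.55 and was called (edgeR adjusted p = 0.0133). The other 15 fits without a single liver did not call Ccna2, with log2 fold changes down to 1.22 and edgeR adjusted p up to 0.309. Bub1b, the checkpoint protein BubR1, was at 1.92, 1.49, 1.07 and 1.8 CPM against 0.746, 0.828, 1.08 and 0.65 (0.92 on the log2 scale, SE 0.36, edgeR adjusted p = 0.16). Top2a was at 6.86, 5.04, 6.08 and 4.53 CPM against 0.678, 2.87, 5.41 and 2.9 (0.92, SE 0.41, edgeR adjusted p = 0.209). In both genes a single control liver overlapped the knockouts.

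The remaining mitosis genes were further from the threshold. Cdk1, the kinase that drives mitotic entry, was at 1.92, 1.59, 0.959 and 1.27 CPM in high-fat knockouts and 0.95, 0.828, 2.98 and 1.15 in high-fat controls, a difference of -0.03 on the log2 scale (SE 0.56). The groups overlapped, and this standard error leaves room for changes in either direction. Foxm1, the transcription factor of the mitotic programme, was at 0.78, 0.566, 1.01 and 0.666 CPM against 0.136, 0.637, 0.609 and 0.35 (0.80, SE 0.61, edgeR adjusted p = 0.446). The chromosomal passenger genes Aurkb, Birc5 and Cdca8 had log2 fold changes of 0.74, 0.61 and 0.87. Cdc20, the activator of the anaphase-promoting complex, had 0.99 (SE 0.62), Cdca3, a trigger of mitotic entry, 0.57 (SE 0.55), and Ccnb2, a second B-type cyclin, 0.40 (SE 0.58). Aurka, the centrosome kinase, was at -0.05 (SE 0.47). Ccnb1, which was not tested, was at 0.572, 0.72, 0.0533 and 0.466 CPM against 0.0678, 0.318, 0.609 and 0.25.

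**Figure D3:**
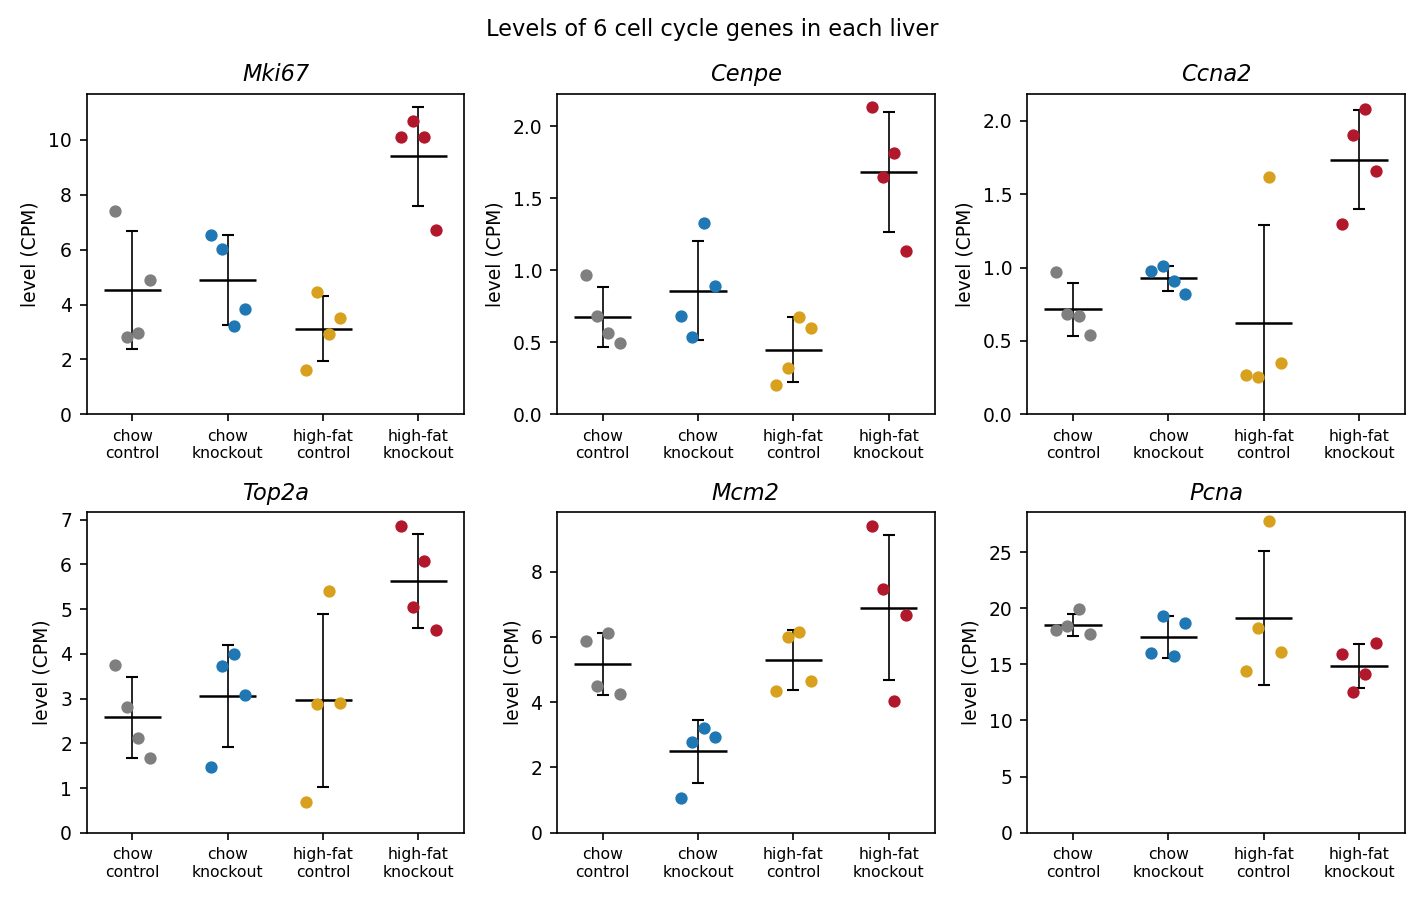
Level in CPM (y axis) of 6 genes in each of the 16 livers (points) by group (x axis), with the group mean (line) and SD (bar, ending at the axis for Ccna2 in high-fat controls). Mki67 and Cenpe in high-fat knockouts lie above all high-fat controls, high-fat control 3 overlaps the knockouts for Ccna2 and Top2a, Mcm2 is lowest in chow knockouts, and Pcna in high-fat knockouts lies in the lower part of its range.

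Of the 12 S-phase genes, 7 had a fitted difference above 0 on the high-fat diet and none reached an unadjusted p of 0.05. Pcna was at 15.9, 12.5, 14.1 and 16.9 CPM in high-fat knockouts and 14.4, 18.2, 27.8 and 16.1 in high-fat controls, a difference of -0.37 on the log2 scale (SE 0.18, edgeR adjusted p = 0.238) with overlap. Of the MCM helicase subunits, Mcm3 was at 0.58 (SE 0.30, edgeR adjusted p = 0.267). Mcm5 was at 0.54, Mcm6 at 0.40, Mcm2 at 0.39, Mcm4 at 0.14 and Mcm7 at -0.09 on the same scale. Mcm6 stood at 8.94, 7.61, 6.56 and 8.12 CPM against 2.58, 6.43, 9.34 and 5.25, and the single high value among the controls was again high-fat control 3. Of the genes of nucleotide supply, Rrm1 was at 0.05, Rrm2 at 0.29 and Tyms, thymidylate synthase, at -0.28. Rrm2, the regulated subunit of ribonucleotide reductase, was at 6.65, 6.33, 4.58 and 7.79 CPM against 6.31, 4.27, 7.58 and 2.7. Ccne2, a cyclin of the step into S phase, was at 1.51, 0.977, 1.44 and 1.8 CPM against 0.746, 1.78, 3.99 and 1 (-0.39, SE 0.52), and Cdc45, which joins MCM in the active helicase, was at -0.34 (SE 0.31).

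On normal chow the same comparison of genotypes called none of the genes, and the largest difference was a lower value of Mcm2, a subunit of the MCM helicase. None of the 33 genes passed the edgeR test, where 0.0139% of all genes tested did, and none did in DESeq2 or limma-voom. At an unadjusted p of 0.05 the count was 0 higher and 1 lower, against 5.1% and 4.42% of all genes tested. The fitted difference was above 0 for 17 of the 33, against 49% of all genes tested. Median log2 fold changes were 0.24 for mitosis genes, -0.13 for S-phase genes and -0.01 for all genes tested. Mcm2 was the gene with p below 0.05. It was at 5.88, 4.49, 6.11 and 4.24 CPM in chow controls and 1.07, 2.78, 3.2 and 2.94 in chow knockouts. The groups did not overlap, as in 2.9% of all genes tested in the lower direction and 3.44% in the higher. The difference was -1.02 on the log2 scale (SE 0.29, edgeR adjusted p = 0.353), and without chow knockout 1 it was -0.79.

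Mcm5 followed at -0.76 (SE 0.44, edgeR adjusted p = 0.573), with 2.77, 4.11, 3.24 and 3.65 CPM in chow controls and 0.293, 2.49, 2.84 and 2.25 in chow knockouts. The lowest of these values rests on 3 counts. The other MCM genes were close to 0, between -0.23 for Mcm6 and 0.10 for Mcm4. Mcm6 was at 7.12, 5.1, 5.44 and 7.08 CPM in chow controls and 2.83, 7.7, 6.28 and 4.1 in chow knockouts. Pcna differed by -0.09 (SE 0.18), with 18.1, 18.4, 19.9 and 17.7 CPM against 16, 19.3, 15.7 and 18.7. Rrm2 differed by 0.08 (SE 0.32), with 4.36, 11, 8.11 and 4.55 CPM against 7.32, 7.34, 5.74 and 9.08.

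Among the mitosis genes on chow, Kif11, the motor that pushes spindle poles apart, had the smallest p (0.53, SE 0.32, edgeR adjusted p = 0.605). Foxm1 was at 0.94 (SE 0.64, edgeR adjusted p = 0.642), with 0.83, 0.305, 0.308 and 0.0451 CPM in controls and 0.39, 0.415, 0.846 and 1.09 in knockouts, and chow control 1 overlapped. Cdk1 was at -0.80 (SE 0.57, edgeR adjusted p = 0.663), with 2.14, 1.68, 1.8 and 1.26 CPM in controls and 0, 1.01, 1.63 and 1.16 in knockouts, the 0 being chow knockout 1. Prc1 (0.59, SE 0.48), Cenpf (0.74, SE 0.61) and Bub1b (-0.44, SE 0.36) were further from significance. Mki67 was at 0.11 (SE 0.33) and Top2a at 0.28 (SE 0.43), with Top2a at 3.74, 2.82, 2.11 and 1.67 CPM in controls and 1.46, 3.73, 3.99 and 3.07 in knockouts. Ccna2 was at 0.968, 0.685, 0.668 and 0.541 CPM in controls and 0.975, 1.01, 0.906 and 0.819 in knockouts, a difference of 0.38 (SE 0.50). Ccne2 was at 0.83, 1.98, 1.44 and 2.75 CPM in controls and 1.37, 1.48, 0.362 and 1.71 in knockouts (-0.53, SE 0.53).

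Whether the knockout difference itself changed with diet was tested by the interaction. None of the 33 genes passed, and neither did any other gene (0% of those tested) in edgeR. DESeq2 and limma-voom also called none of the 33. At an unadjusted p of 0.05 the interaction was positive for 5 of the 33 and negative for 0, against 5.37% and 5.89% of all genes tested. These were Mcm2 (1.41, SE 0.40), Mki67 (1.48, SE 0.47), Bub1b (1.36, SE 0.51), Cenpe (1.51, SE 0.61) and Mcm5 (1.31, SE 0.60), with edgeR adjusted p of 0.255, 0.279, 0.339, 0.361 and 0.43. The median was 0.47 over the 33 genes and -0.01 over all genes tested, and 26 of the 33 lay above 0 against 49.4% of all. With no filter on low counts Mki67 was called (edgeR adjusted p = 0.0473), and no other alternative called any of the 33.

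The high-fat diet was compared with chow within each genotype. These comparisons reuse the groups of the knockout comparisons, so their values are not independent of those above. In controls the diet went with no called gene among the 33, where 1.83% of all genes tested were called, and DESeq2 and limma-voom also called none. At an unadjusted p of 0.05 the count was 0 higher and 1 lower, against 9.98% and 7.09% of all genes tested. The 1 was Bub1b (-0.82, SE 0.37, edgeR adjusted p = 0.261). The median was 0.03 over the 33 genes and 0.01 over all genes tested, with 17 of the 33 above 0 against 51.3%. The groups overlapped for all 33, where 3.21% of all genes tested stood apart higher and 4.01% lower. Mki67 in controls was at -0.53 (SE 0.34), Cenpe at -0.56 (SE 0.45), Ccnb2 at 0.97 (SE 0.62) and Rrm2 at -0.43 (SE 0.32). The smallest changes included Mcm2 at 0.03 (SE 0.28) and Pcna at 0.04 (SE 0.18).

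In knockouts, Mcm2 rose with the high-fat diet and was the single gene of the 33 to pass the edgeR test, where 10.6% of all genes tested were called and 5.21% were called higher. It was at 9.41, 7.46, 4.05 and 6.66 CPM in high-fat knockouts and at 1.07, 2.78, 3.2 and 2.94 in chow knockouts, without overlap. The change was 2.71-fold, or 1.44 on the log2 scale (SE 0.29, edgeR adjusted p = 0.00775). In controls the Mcm2 levels of both diets overlapped, with 4.34, 5.99, 6.16 and 4.65 CPM on the high-fat diet. The high-fat knockouts thus spanned the range of both control groups and went above it, and all chow knockouts were below it. Leaving out any single liver kept the call, with adjusted p between 0.00375 and 0.0297, and the lowest log2 fold change, 1.22 against 1.44 with all livers, was without chow knockout 1.

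The count at an unadjusted p of 0.05 was 6 higher and 0 lower in knockouts, against 14.8% and 14% of all genes tested. The groups did not overlap for 6 of the 33, all higher, against 12.1% of all genes tested higher and 12.4% lower. The median was 0.54 against 0.02 for all genes tested, and 28 of the 33 lay above 0 against 51.9%. Mki67 had 0.95 (SE 0.33, edgeR adjusted p = 0.0676) without overlap, and Mcm5 1.24 (SE 0.43, edgeR adjusted p = 0.0702), with 6.76, 4.63, 2.66 and 5.13 CPM on the high-fat diet. High-fat knockout 3 was the low one and overlapped the chow knockouts for Mcm5. Cenpe had 0.96 (SE 0.41, edgeR adjusted p = 0.135), Cdc20 1.41 (SE 0.64, edgeR adjusted p = 0.154) and Ccnb2 1.31 (SE 0.62, edgeR adjusted p = 0.171). Top2a (0.86, SE 0.41), Cdca3 (1.11, SE 0.57) and Ccna2 (0.90, SE 0.48) came next. Aurka, at -0.59 (SE 0.46), was the single mitosis gene of the 21 with a fitted change below 0.

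**Figure D4:**
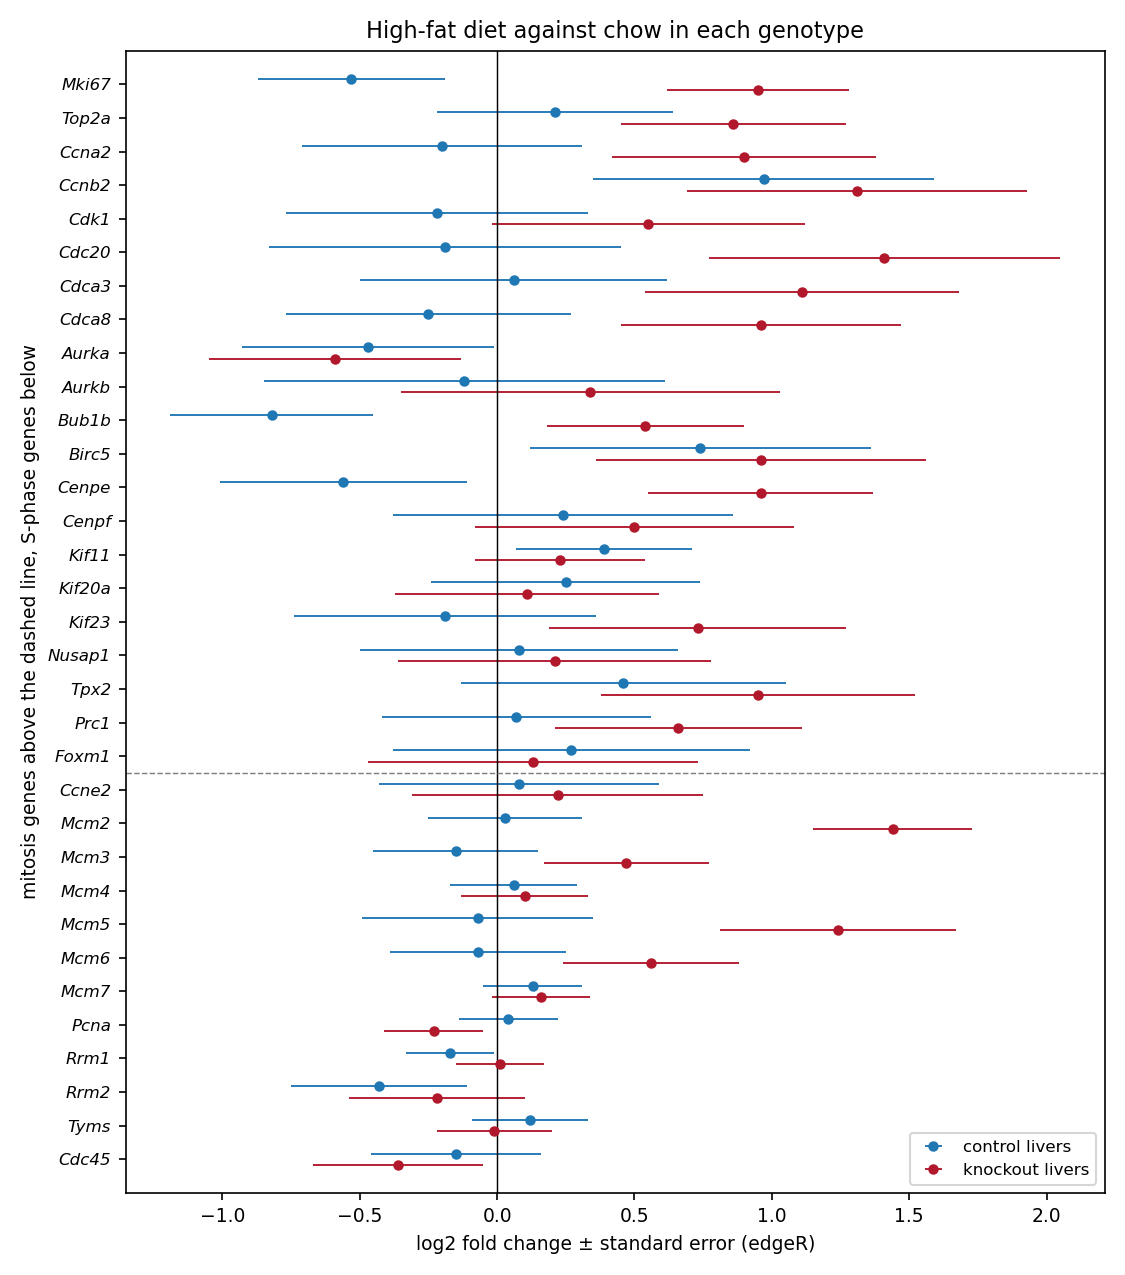
Log2 fold change of high-fat diet against chow (x axis, edgeR, bars give the standard error) in control livers (blue) and in knockout livers (red) for the 33 genes tested (y axis), mitosis genes above the dashed line and S-phase genes below. Mcm2 lies at 1.44 in knockouts and 0.03 in controls, and 20 of the 21 mitosis genes lie above 0 in knockouts against 11 in controls.

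Scaling bears on these medians. With library totals in place of TMM factors, the median of all genes tested in the diet comparison within knockouts moved from 0.02 to 0.36, and 6 of the 33 genes were then called, all higher. In the knockout comparison on the high-fat diet the median of all genes moved from 0.03 to 0.23 and 2 of the 33 were called. The share of all genes called with library totals is not given here, so these counts have no background beside them. Differences of all genes varied with transcript length. On the high-fat diet the median knockout difference of all genes tested ran from -0.25 in the shortest of 4 length bins to 0.19 in the longest. The members in those bins had medians of 0.61 (5 genes) and 0.92 (7 genes). In the bins between, the members had lower medians of 0.29 (5 genes) and 0.39 (16 genes), against -0.03 and 0.08 for all genes. With offsets for length and GC content the median of the 33 was 0.49, against 0.54 without, and 0 were called.

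Other cell cycle genes were grouped in 8 further lists holding 168 genes. Of these, 140 passed the count filter, and edgeR called 0 in either knockout comparison. At an unadjusted p of 0.05 there were 2 higher and 4 lower on chow and 14 higher and 5 lower on the high-fat diet. Over all genes tested the shares were 5.1% and 4.42% on chow and 8.54% and 12.8% on the high-fat diet, so the 14 higher lie near the background. DESeq2 called 0 on chow and 1 (Cdkn1a) on the high-fat diet. The spindle and cytokinesis list came nearest in direction on the high-fat diet, with all 17 of its tested genes of 23 above 0 and a median of 0.80, led by Ckap2 (1.85), Racgap1 (1.13), Kntc1 (1.37) and Cit (0.90), with edgeR adjusted p of 0.156, 0.179, 0.192 and 0.213. On chow the same list had 14 of 17 above 0 and a median of 0.36. The list of other kinase, checkpoint and kinetochore genes had 18 of 26 above 0 and a median of 0.25 on the high-fat diet. The condensin and chromosome list had 8 of 11 and 0.28. The origin licensing list had 4 of 15 above 0 and a median of -0.17, and the replication fork list 14 of 27 and 0.03, both lists of S-phase genes outside the 12.

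Among the controllers of the cycle, the list of cyclins, kinases, E2F and pocket proteins of the step into S phase had a median of 0.16 on the high-fat diet, with 16 of 24 above 0, and Rbl1 had the smallest p (0.66, edgeR adjusted p = 0.187). Of the 5 CDK inhibitors tested, Cdkn1a (p21, a brake on the cyclin-dependent kinases and a target of p53) was at 12.2 to 17.5 CPM in high-fat knockouts and 1.25 to 6.24 in high-fat controls. These ranges did not overlap (1.81 on the log2 scale, SE 0.51, edgeR adjusted p = 0.103). The other 4 were between -0.30 and 0.06. Uhrf1, which couples DNA methylation to replication, was at 1.07 to 2.24 CPM against 0.543 to 0.812 (2.3-fold, edgeR adjusted p = 0.122), while the clamp loader subunit Rfc5 was at -0.65 (SE 0.22, edgeR adjusted p = 0.121). On chow the knockout difference was 1.10 for Uhrf1 (SE 0.42, edgeR adjusted p = 0.469). It was 0.89 for Cdkn1a (SE 0.52, edgeR adjusted p = 0.584) and 0.04 for Rfc5 (SE 0.22), and the groups overlapped for each. The interactions of Uhrf1, Cdkn1a and Rfc5 were 0.11, 0.92 and -0.69 (edgeR adjusted p = 0.964, 0.66 and 0.419). Among 15 hepatocyte growth signals Tgfa had the smallest p on the high-fat diet (0.36, edgeR adjusted p = 0.227).

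Between diets in knockouts, 7 of the 140 related genes tested were called by edgeR, 4 higher and 3 lower, where 10.6% of all genes tested were called. Without chow knockout 2, chow knockout 4, high-fat knockout 2 or high-fat knockout 4, left out singly, Mcm10 was the 1 gene still called. Without high-fat knockout 1 there were 3 calls and without high-fat knockout 3 there were 4. Kif18a, a motor that damps chromosome movements, rose by 1.68 (SE 0.43, edgeR adjusted p = 0.0213). Hjurp, the chaperone of the centromeric histone, rose by 0.78 (edgeR adjusted p = 0.0451), the condensin subunit gene Ncapd3 by 0.65 (edgeR adjusted p = 0.0226) and lamin B1 (Lmnb1) by 0.69 (edgeR adjusted p = 0.0449). The replication initiation factor gene Mcm10 changed by -1.47 (SE 0.31, edgeR adjusted p = 0.00895), the ribonuclease subunit gene Rnaseh2a by -0.71 (edgeR adjusted p = 0.0237) and the growth factor receptor gene Egfr by -1.35 (SE 0.41, edgeR adjusted p = 0.0442). Mcm10 and Mcm2, both of replication origins, thus moved in opposite directions in this comparison. In controls edgeR called 0 of the related genes between diets, where 1.83% of all genes tested were called. At an unadjusted p of 0.05 there were 6 higher and 6 lower, against 9.98% and 7.09% of all genes tested. DESeq2 called 3, and its share of all genes is not given here.

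Markers of other cell types were measured in the same livers. In bulk tissue, more cells of a type and more RNA per cell cannot be told apart. The summed level of 9 recruited macrophage markers was 131, 73.3, 47.1 and 30 CPM in high-fat knockouts and 24.5, 21.9, 46.2 and 37.4 in high-fat controls, and 22.3 to 38.1 in the chow livers. On the high-fat diet 9 of 9 were above 0 between genotypes with 0 called, led by Gpnmb (3.89, SE 0.85, edgeR adjusted p = 0.0736). Between diets in knockouts 7 of 9 rose, where 5.21% of all genes tested were called higher. In that comparison 2 of 8 hepatocyte markers fell, where 768 of the 14351 genes tested were called lower, and all 8 lay below 0 (median -0.47). Cidec, a lipid droplet gene on the list of fat and pancreas markers, rose there by 4.17 (SE 0.87, edgeR adjusted p = 0.00893). Between genotypes on the high-fat diet, 6 of the 9 macrophage markers were higher and 0 lower at an unadjusted p of 0.05. The shares of all genes tested were 8.54% and 12.8%. Among the high-fat knockouts the macrophage and mitosis sums fell in the same order of livers, and among the high-fat controls the order differed for the lower livers. High-fat knockout 4 had a macrophage sum inside the range of the controls, at 30 CPM, while its mitosis sum, 36.2, was above all control livers. High-fat control 3 was the highest of its group in both sums.

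The 8 T and NK cell markers summed to 5.87, 4.68, 19.5 and 4.53 CPM in high-fat knockouts and 2.61 to 3.8 in high-fat controls, without overlap, and to 2.9 to 6.43 in chow livers. Of the 5 tested, 5 were above 0, led by Cd8a (3.29, SE 0.76, edgeR adjusted p = 0.084), while Cd3d, Cd3e, Cd8a and Gzma had 0 counts in at least 1 high-fat control. The liver with the highest T and NK sum, high-fat knockout 3, had neither the highest nor the lowest mitosis sum of its group. The 7 erythroid precursor markers, which could mark dividing blood precursors, summed to 83.7 to 112 CPM in high-fat knockouts and 118 to 168 in high-fat controls. The knockout sums thus lay below the control sums. Of the defining markers, Hemgn was at 0 in all high-fat livers and Ermap at or under 0.121 CPM in all livers. The sum of 8 hepatocyte markers was 86000 ± 10200 CPM in high-fat knockouts and 103000 ± 12900 in high-fat controls. Of the 6 Kupffer cell, 6 stellate cell, 6 sinusoidal endothelium and 5 cholangiocyte markers, 3, 4, 1 and 4 lay above 0 between genotypes on the high-fat diet, with 0 called by edgeR and 1 of these (a stellate cell marker) at an unadjusted p of 0.05. The part of each of these cell types in the level of the cell cycle genes was not tested. The order of sums among 4 livers per group cannot show it.

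**Figure D5:**
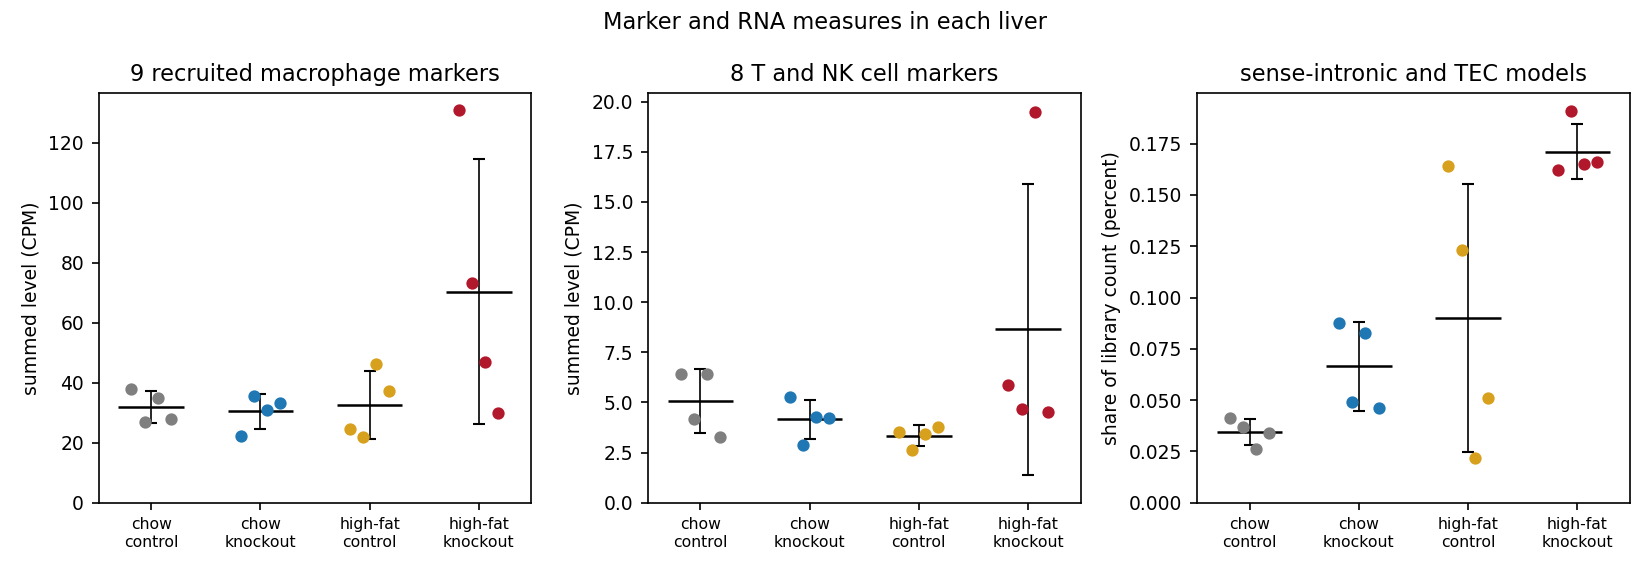
Summed level in CPM of 9 recruited macrophage and 8 T and NK cell markers, and share of library counts on sense-intronic and TEC models in percent (y axes), in each of the 16 livers (points) by group (x axes), with the group mean (line) and SD (bar). High-fat knockouts range from 30 to 131 CPM for the macrophage markers, one liver stands at 19.5 CPM for the T and NK markers, and the high-fat controls range from 0.0218% to 0.164% in the third panel.

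The share of counts on sense-intronic and TEC models, used here as a measure of unspliced RNA, was 0.171% ± 0.0134 (SD, n = 4) in high-fat knockouts, 0.0901% ± 0.0651 in high-fat controls, 0.0664% ± 0.0217 in chow knockouts and 0.0346% ± 0.00626 in chow controls. Within the high-fat controls the share ran the other way to the mitosis sum: 0.164% and 12.1 CPM in replicate 1, 0.0218% and 34.7 CPM in replicate 3. With this share as a covariate the median knockout difference of the 33 genes on the high-fat diet was 1.02 in place of 0.54, with 0 called, and the diet comparison in knockouts had 4 called (Mcm2, Cdc20, Top2a and Ccna2). The share did not overlap between high-fat knockouts (0.162% to 0.191%) and chow knockouts (0.0463% to 0.0878%). On the high-fat diet a single control, replicate 1, reached the knockout range. The covariate fit thus cannot separate the share from the groups, and its values are not corrected differences. Without high-fat control 3 the median on the high-fat diet was 0.80, and without high-fat control 1 it was 0.33. The sign was the same in all 16 fits that leave out 1 liver. The part of unspliced RNA in these differences was not tested beyond the covariate fit.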

How the data were processed

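RNA was extracted with an RNAeasy kit and sequenced after TruSeq Stranded RNA library preparation with Ribo-Zero Gold, per the labels' protocols. The authors deposited 1 table of whole-number counts of reads for each Ensembl gene, with no normalization. STAR 2.5.4a, featureCounts 1.5.1, DESeq2 and the build GRCm38 are named per the submitters' processing notes, and the sources used here do not give their settings, strand or treatment of multi-mapped reads. The table has 0 columns without a sample. Replicates were numbered in accession order, and animal numbers in the labels show that each liver is a separate mouse.

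Genes passing filterByExpr in edgeR 4.0.16 (minimum count 10) were scaled by TMM and fitted with 4 group means over 16 livers in the quasi-likelihood F-test (R 4.3.3). The Benjamini-Hochberg adjustment ran over all genes tested, with a threshold of 0.05. The common biological coefficient of variation was 0.247. A standard error is the log2 fold change divided by the square root of F. The fit was tested on simulated counts. Alternatives were DESeq2 1.42.0, limma-voom (limma 3.58.1), other scalings and filters, only the groups compared, fits without single livers, and the unspliced share as a covariate. Offsets for length and GC content were chosen after seeing the data. CPM use TMM library sizes. Promoter words were searched in RefSeq windows.

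The members and lists were chosen with earlier results of these data known. Named with statistics were Degs1, each member called and up to 8 more with the smallest p per comparison, and up to 4 genes per related list and knockout comparison. Values in every liver were set for 12 members. Those of Cenpe, Bub1b and Prc1, and the related genes called between diets, were added outside that rule after their values were seen, as were other members given by fold change.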

Additional observations from a re-analysis of the deposited data

Results flagged for a closer look

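Of 68 groups of 4 livers checked, 4 held 1 liver far from the other 3, and chance flags about 1 in 20 groups. Ccna2 in high-fat control 3 reached 1.62 CPM, while the rest of that group lay between 0.255 and 0.35. Cdk1 in the same liver reached 2.98 CPM, the rest lying between 0.828 and 1.15. Mki67 in high-fat knockout 4 stood at 6.73 CPM, below the 10.1 to 10.7 of the remaining knockouts on that diet. The summed level of the mitosis genes in chow control 1 was 32.6 CPM, above the 18.6 to 21 of the remaining chow controls.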

How the results depend on the processing

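No paired analysis was possible because the livers come from different animals and replicate numbers follow accession order only. Of the 33 genes, the number called between genotypes on the high-fat diet was 0, but 2 in DESeq2, with library totals only and with no filter (Mki67 and Cenpe each time), 1 in limma-voom and with upper-quartile scaling (Mki67), and 1 when high-fat control 3 and chow knockout 1 were both left out (Ccna2). It ranged from 0 to 1 when single livers were left out, the 1 being without high-fat control 3. Between diets in knockouts, 1 was called, but 3 in DESeq2 and with no filter, 2 in limma-voom, with upper-quartile scaling, with only the groups compared and without both livers, 6 with library totals and 4 when the unspliced share was a covariate, and 1 to 3 without single livers (3 without high-fat control 1). In the interaction 1 was called with no filter (Mki67). Related genes called were 1 on the high-fat diet in DESeq2 and with no filter. Between diets in controls they were 3 in DESeq2, 1 with no filter, 8 with the covariate, 4 without both livers, 2 with length and GC offsets and 0 to 3 without single livers. In knockouts they were 23 with library totals, 1 with the covariate, 11 without both livers and 1 to 9 without single livers. The shares of all genes called under these alternatives are not given here, so the counts are not set against a background.

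The median knockout difference on the high-fat diet was 1.02 for all 33 genes tested and 1.31 for mitosis genes with the covariate, and 1.10 for mitosis genes without both livers. The covariate goes largely with the groups, so values with it are not corrected differences. Mitosis medians without single livers ranged from 0.52 to 1.09. For diet in knockouts the covariate gave 1.12 and 1.25, and library totals gave 0.47 for S-phase genes. Interaction medians were 0.80 and 1.03 with the covariate and 0.98 for mitosis genes without both livers, and 0.23 to 0.83 and 0.30 to 1.10 without single livers. With library totals the summed CPM of all members was 103 in chow controls and 152 in high-fat knockouts, of mitosis genes 48.2 in high-fat knockouts, and of S-phase genes 81.9 in chow controls and 104 in high-fat knockouts. With the covariate, Pcna between genotypes on the high-fat diet was 0.02 and Rrm1 between diets in controls was 0.03, both reversed in sign. The fall of Degs1 was -0.96 on chow and -0.92 on the high-fat diet with the covariate (edgeR adjusted p = 0.0543 and 0.0535), and -1.23 on the high-fat diet with only the groups compared (edgeR adjusted p = 0.138). On chow it ranged from -1.17 to -1.12 without single livers and missed the threshold in 7 of 16 fits (edgeR adjusted p between 0.00104 and 0.118). The cause of these changes was not tested, except that a minimum count of 30 left 14 of the 33 genes and no filter tested all 36. Low counts limit the mitosis genes most, since 23 of the 36 genes had under 10 counts in at least 1 liver.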
